A study of Homo sapiens with 15 samples.

Results

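A set of 10 genes that encode amino acid transporters was examined in U87MG, an established human glioblastoma cell line. They were picked by symbol from a table of 25737 gene entries, and each was listed once. The choice was made with earlier results of these libraries known, including the comparisons with the control, so their differences from the control, and how many of them pass the threshold of the fit, are given as a description with no p-value. The table held 3 libraries in each of 5 groups. Cells of the control group received a control lentivirus and are named GFP after their titles. Cells of the other groups received a lentivirus for ID1, ID2, ID3 or ID4, and all groups were treated for 24 h in the same serum medium with added L-glutamine. ID proteins bind basic helix-loop-helix transcription factors and keep them from DNA. The QuantSeq 3′ kit used for the libraries yields reads near the 3′ end of a transcript. The counts therefore measure mRNA, not transport or protein.

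Total counts ran from 11089044 to 15148979 per library, so that 3 counts correspond to 0.198 to 0.271 CPM (counts scaled to 1000000 per library). Of the genes listed for a glioblastoma line, VIM stood at 3480 to 4760 CPM and CD44 at 493 to 616 CPM, while NES, also a stem cell marker, stood at 16.6 to 29.8 CPM, EGFR at 23.9 to 32.4 CPM and CHI3L1 at 19.6 to 61 CPM. The listed astrocyte markers GFAP, AQP4 and ALDH1L1 had at most 4 counts in any library, as did SOX2, SOX10 and the neuronal RBFOX3, while OLIG2 had 2 to 11 counts and the neuronal SYT1 21 to 51. The myeloid-associated gene CD68 stood at 49 to 73.4 CPM while PTPRC had at most 8 counts. The group labels were checked against the labelled genes. ID4 counts were 2479 to 3110 in the ID4 libraries and at most 10 elsewhere, and ID3 was higher in its own libraries than in GFP (301 to 323 against 214 to 230 CPM). However, ID3 stood at 268 to 319 CPM in the libraries labelled ID2, which overlapped its own. ID4 was the only labelled gene that was higher in its own libraries than in all others. ID1 was lower in the libraries labelled ID1 (247 to 254 CPM) than in GFP (337 to 350 CPM), and ID2 was lower in the libraries labelled ID2 (43.7 to 46.2 CPM) than in GFP (83.1 to 88.7 CPM). ID1 was also below GFP in the ID4 libraries (260 to 299 CPM). ID2 was below GFP in every ID group, with 31.6 to 36.8 CPM in the libraries labelled ID1. Whether the introduced ID1 and ID2 transcripts carry the 3′ end that was counted is not given in the sources used here, so directions are given for libraries labelled ID1 and ID2. The labels do not say that the 3 libraries of a group came from separate cultures, and p-values then measure the spread between these libraries, which may be technical. In bulk RNA, fewer cells of a kind and less RNA per cell cannot be told apart.

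Amino acids cross the plasma membrane through carriers that differ in substrate, ion coupling and whether they exchange one amino acid for another. SLC7A5 (LAT1) imports leucine and other large neutral amino acids in exchange for intracellular amino acids such as glutamine, and SLC7A11 (xCT) imports cystine in exchange for glutamate. Both need SLC3A2, the CD98 heavy chain, to reach the membrane. When amino acids are short, the kinase GCN2 favours translation of the transcription factor ATF4, which binds composite C/EBP-ATF sites and is known to act on several transporter genes.

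The start regions of the members are shown first, since that composite site is the element by which amino acid supply is known to act on genes of this kind. RefSeq windows of 250 bases before and 50 bases after each annotated start (GRCh38.p14) were found for 9 of the 10 members, in 17 windows, and not for SLC7A11. The composite core TGATGNAA was searched on both strands. It was matched in 6 of the 9 members, and in 4.46% of the 27305 genes in the table. Since members can have several windows, the shares by window are 6 of 17 for the members and 3.62% of all 35116. Below, 30 bases around each match are given 5′ to 3′ along the gene, with the matched letters in capitals. SLC3A2 and SLC1A4 match on the opposite strand.
SLC3A2: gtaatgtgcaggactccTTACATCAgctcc
SLC7A1: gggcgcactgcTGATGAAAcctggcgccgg
SLC1A5: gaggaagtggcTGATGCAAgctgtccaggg
SLC1A4: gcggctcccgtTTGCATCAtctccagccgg
SLC1A3: caggaaatgacTGATGCAAagcagggttaa
SLC38A1: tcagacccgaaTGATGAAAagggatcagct
On GRCh37, on which the windows were placed by exact match, these stretches lie at chr11:62649191-62649220 (plus strand), chr13:30169800-30169829 (minus), chr19:47288150-47288179 (minus), chr2:65216515-65216544 (plus), chr5:36596459-36596488 (plus) and chr12:46660285-46660314 (minus).

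Counted from the first transcribed base as 1, the matched letters begin at 38 in SLC3A2, 8 in SLC7A1, -97 in SLC1A5, -7 in SLC1A4, -220 in SLC1A3 and -4 in SLC38A1. For SLC3A2, SLC1A5, SLC1A4 and SLC38A1 that base is an annotated start inside the gene, not at its outer end. Windows of SLC7A5, SLC38A2 and SLC6A9 held no match, which says only that these letters are not in those windows. Of the 6 members with a match, 4 belong to the 7 that were lower than GFP in all ID groups and 2 (SLC7A1 and SLC1A3) to the other 3. The letters TGACNNNGC, a core of the antioxidant element, were matched in 5 of 9 members against 16.1% of genes. The E-box CAGCTG, a site class bound by basic helix-loop-helix factors, was matched in 3 of 9 members (21.1% of genes) and CAGGTG in 2 (24.1% of genes). In SLC7A5, the member furthest from GFP, the antioxidant core spanned the start, from -2 to 7, and shared letters with a CAGCTG box at 4 to 9. The antioxidant core is shown in capitals, at chr16:87903096-87903125 on the minus strand.
SLC7A5: gcggggttccTGACGCAGCtgcgggcggcg

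Against GFP, 7 of the 10 members were lower in all 4 ID groups. These were SLC7A5, SLC3A2, SLC7A11, SLC1A5, SLC1A4, SLC38A1 and SLC6A9, which carry large neutral amino acids, cystine, glutamine, small neutral amino acids and glycine. The glutamate carrier SLC1A3 and the cationic carrier SLC7A1 were higher than GFP in all libraries of all ID groups. SLC38A2, a glutamine and alanine carrier, overlapped GFP in all 4. A gene is said to be called where its adjusted p was under 0.05 in edgeR's quasi-likelihood test, over 12870 tested genes. The 7 lower members were called in each ID group, where 9.73% (ID1), 16.7% (ID2), 13.5% (ID3) and 9.51% (ID4) of all tested genes were called lower, and 4.16% were called lower in all 4. Called higher were 1, 2, 1 and 0 members, beside 12.4%, 18.5%, 15.1% and 12.1% of all tested genes. The libraries of 7 members lay wholly below GFP in each ID group, as did 16.1%, 21.8%, 17.8% and 17.6% of all tested genes in ID1 to ID4, and those of 2 members wholly above, as did 21%, 20.5%, 22.8% and 19.5%. Since these contrasts were known when the members were chosen, nothing is read from the counts. The median log2 difference of the members was -0.53, -0.64, -0.82 and -0.63 in ID1 to ID4, beside 0.00 over all tested genes. All 4 comparisons share the same 3 GFP libraries.

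**Figure D1:**
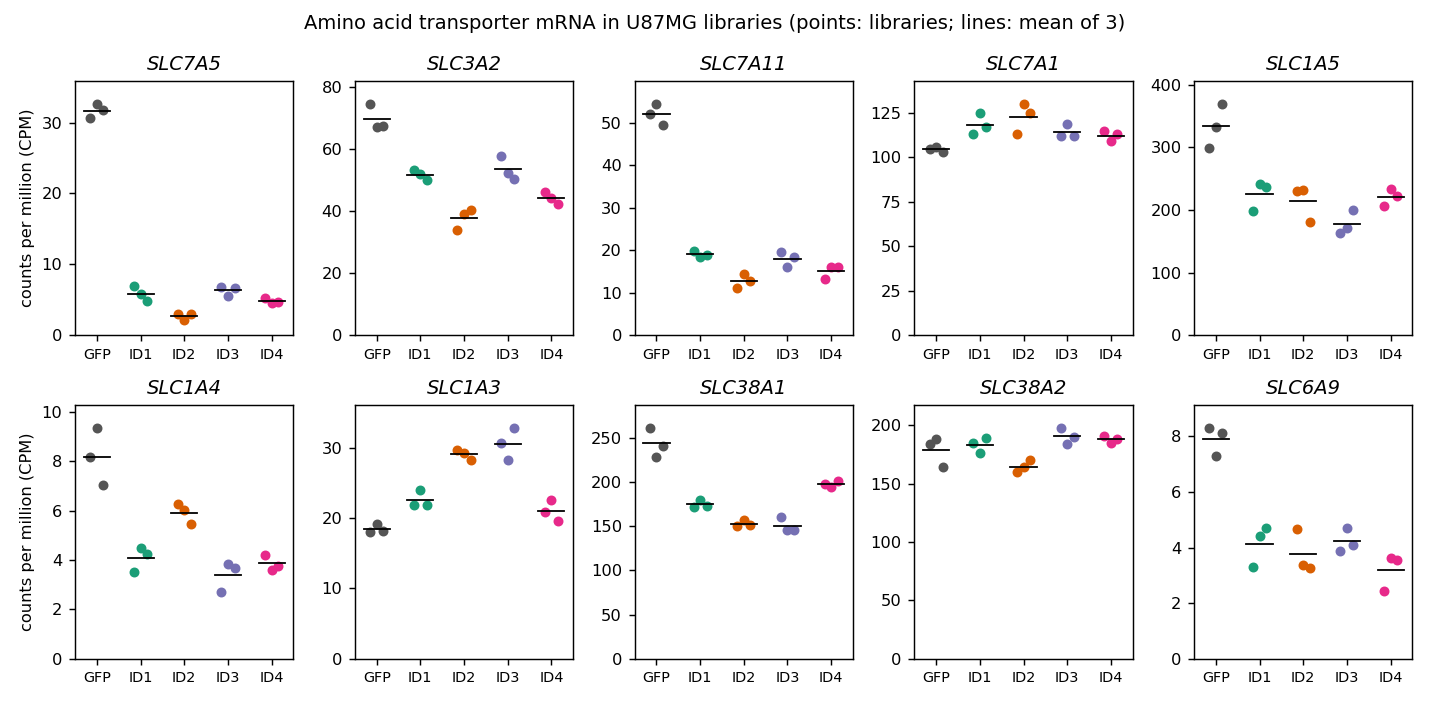
Level of each of the 10 transporter mRNAs in CPM (vertical axis, from 0, own scale per gene) in the 3 libraries of each group (horizontal axis); points are libraries and lines are means of 3. SLC7A5 stands at 30.6 to 32.6 CPM in GFP and at most 6.87 CPM in any ID library, while SLC38A2 overlaps GFP in every ID group.

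SLC7A5 (chr16:87863629-87903113, GRCh37, minus strand) stood furthest from the control. Its level was 30.6, 32.6 and 31.8 CPM in the GFP libraries, against 6.87, 5.83 and 4.85 CPM in the libraries labelled ID1 and 2.92, 2.15 and 2.91 CPM in those labelled ID2. The ID3 libraries gave 6.86, 5.48 and 6.58 CPM, and the ID4 libraries 5.21, 4.6 and 4.69 CPM. All 12 ID libraries were below all GFP libraries, and all ID2 libraries were below every other library. The log2 difference from GFP was -2.44 (SE 0.13) in ID1, -3.55 (SE 0.14) in ID2, -2.35 (SE 0.13) in ID3 and -2.71 (SE 0.13) in ID4, so that the ID2 mean was 8.39% of the GFP mean. These levels rest on 380 to 434 counts per library in GFP and on 31 to 42 counts in ID2. The SLC7A5-like pseudogenes, to which reads could be divided, had at most 1 count for SLC7A5P1 and 2 to 14 counts for SLC7A5P2 in any library. SLC7A5P2 had 5 to 9 counts in GFP and 4 to 12 in ID2, where SLC7A5 itself had few. The effect of divided reads was not tested.

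SLC3A2 (chr11:62623476-62656352, plus strand), the heavy chain that SLC7A5 and SLC7A11 share, followed the same order of groups as SLC7A5 over a smaller range. It stood at 74.5, 67.1 and 67.3 CPM in GFP, at 53.1, 52.1 and 50.1 CPM in ID1 and at 33.9, 39.1 and 40.4 CPM in ID2. In ID3 it stood at 57.7, 52.4 and 50.5 CPM and in ID4 at 46.3, 44.1 and 42.4 CPM. No ID library reached the lowest GFP library, and ID1 and ID3 overlapped each other. The differences on the log2 scale were -0.44, -0.87, -0.40 and -0.66 in ID1 to ID4, each with an SE of 0.07. The order of means was GFP, ID3, ID1, ID4 and ID2 for both SLC7A5 and SLC3A2. In SLC7A5 the ID1 libraries overlapped those of ID3 and of ID4, and no difference among ID1, ID3 and ID4 was called.

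SLC7A11 (chr4:139085251-139163503, minus strand), the cystine carrier that feeds glutathione synthesis, gave 52.1, 54.4 and 49.6 CPM in GFP. The ID1 libraries gave 19.8, 18.5 and 18.9 CPM and the ID2 libraries 11.1, 14.5 and 12.7 CPM. Values of 19.6, 16.1 and 18.3 CPM in ID3 and 13.1, 16.1 and 16.1 CPM in ID4 lay between. The ID groups lay far below GFP and close to one another, with ID1 overlapping ID3 and ID4 overlapping ID2. The log2 differences from GFP were -1.46 (SE 0.09), -2.01 (SE 0.10), -1.55 (SE 0.10) and -1.79 (SE 0.10) in ID1 to ID4. SLC7A11-AS1, the antisense entry at the locus, had 2 to 15 counts in any library, against 152 to 740 for SLC7A11. Whether the counting used strand is not given in the sources used here.

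SLC7A1 (CAT1, chr13:30083551-30169825, minus strand) imports arginine and lysine and differs from the other SLC7 members in needing no heavy chain. It stood at 105, 106 and 103 CPM in GFP and at 113, 130 and 125 CPM in ID2. The values were 113, 125 and 117 CPM in ID1, 112, 119 and 112 CPM in ID3, and 115, 109 and 113 CPM in ID4. Every ID library lay above every GFP library, but the 4 ID groups overlapped one another. The log2 difference from GFP was called in ID2 (0.25, SE 0.06), while it was 0.16, 0.11 and 0.11 in ID1, ID3 and ID4 (each SE 0.06). SLC7A1 thus lay on the other side of GFP from SLC7A5 and SLC7A11, with a call in ID2 alone.

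SLC1A5 (ASCT2, chr19:47278140-47291851, minus strand) exchanges glutamine and other neutral amino acids and is known as a main route of glutamine into tumour cells. GFP libraries gave 299, 332 and 369 CPM. The level was 198, 242 and 236 CPM in ID1, 231, 232 and 181 CPM in ID2, 163, 171 and 200 CPM in ID3, and 206, 233 and 223 CPM in ID4. All ID libraries were below GFP, and the ID groups next to each other in order overlapped. Log2 differences were -0.58, -0.62, -0.93 and -0.60 in ID1 to ID4 (each SE 0.10).

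SLC1A4 (ASCT1, chr2:65215611-65250999, plus strand) carries alanine, serine and cysteine, and was low, with 39 to 116 counts per library. It stood at 8.17, 9.36 and 7.03 CPM in GFP and at 6.27, 6.02 and 5.47 CPM in ID2. The other groups were lower, with 3.5, 4.48 and 4.25 CPM in ID1, 2.7, 3.84 and 3.67 CPM in ID3, and 4.22, 3.61 and 3.78 CPM in ID4. ID2, which held the lowest SLC7A5, here stood closest to GFP and apart from the other ID groups. The log2 difference was -0.45 (SE 0.16) in ID2 against -1.02, -1.29 and -1.08 (each SE 0.17) in ID1, ID3 and ID4. The call in ID2 was absent with DESeq2, with limma and without GFP replicate 1 or 2 or ID2 replicate 2 or 3.

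SLC1A3 (EAAT1, chr5:36596690-36688436, plus strand), the glial carrier that clears glutamate, was the member furthest above GFP. It stood at 18, 19.2 and 18.1 CPM in GFP, at 29.7, 29.2 and 28.2 CPM in ID2 and at 30.6, 28.2 and 32.8 CPM in ID3. The ID1 libraries gave 21.8, 24 and 21.9 CPM and the ID4 libraries 20.9, 22.5 and 19.5 CPM. All ID libraries lay above GFP, in a higher pair of groups (ID2 and ID3) and a lower pair (ID1 and ID4) that overlapped within each pair. The log2 differences were 0.67 and 0.71 in ID2 and ID3 (each SE 0.08), and 0.28 and 0.18 in ID1 and ID4 (each SE 0.09), and that in ID4 was not called. The call in ID1 was absent with no filter and without GFP replicate 1 or 3 or ID1 replicate 2.

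SLC38A1 (SNAT1, chr12:46576846-46663800) and SLC38A2 (SNAT2, chr12:46751971-46766556) are neighbouring genes on the minus strand and encode sodium-coupled carriers of glutamine and alanine. SLC38A1 stood at 261, 228 and 241 CPM in GFP, at 172, 179 and 173 CPM in ID1 and at 150, 157 and 151 CPM in ID2. ID3 libraries gave 160, 146 and 145 CPM, and ID4 libraries 198, 194 and 201 CPM. All lay below GFP, with log2 differences of -0.49, -0.65, -0.72 and -0.30 in ID1 to ID4 (each SE 0.05). SLC38A2 stood at 184, 188 and 164 CPM in GFP, 185, 176 and 189 CPM in ID1, and 160, 164 and 170 CPM in ID2. The ID3 libraries gave 198, 184 and 190 CPM and the ID4 libraries 191, 185 and 188 CPM. None of its 4 log2 differences (0.02, -0.10, 0.07 and 0.07, each SE 0.05) was called, and the groups overlapped GFP. The 634 tested genes of chromosome 12 had a median log2 difference of 0.17, 0.20, 0.14 and 0.19 in ID1 to ID4, and the 72 within 5 Mb of the pair 0.22, 0.28, 0.22 and 0.30. SLC38A1 was thus lower beside a median above 0, and the part of the chromosome-wide shift in the SLC38A2 values was not tested. Medians over the chromosomes of the other members lay between -0.14 and 0.03. Within 5 Mb of SLC3A2, 183 tested genes had medians of -0.11, -0.18, -0.07 and -0.16 in ID1 to ID4, with 78 called lower and 14 higher in ID2. Within 5 Mb of SLC7A5, 66 tested genes had medians of -0.09, -0.18, 0.00 and -0.07, with 26 called lower and 5 higher in ID2. These windows move with the members in part, and their part in the values of SLC3A2 and SLC7A5 was not tested.

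SLC6A9 (GLYT1, chr1:44457172-44497139, minus strand), the sodium-coupled glycine carrier, was the least counted member, with 32 to 118 counts per library. Its level was 8.31, 7.29 and 8.12 CPM in GFP, 3.3, 4.41 and 4.7 CPM in ID1 and 4.66, 3.39 and 3.25 CPM in ID2. It was 3.88, 4.7 and 4.11 CPM in ID3 and 2.45, 3.61 and 3.56 CPM in ID4. Every ID library was below GFP, and neighbouring ID groups overlapped. The log2 differences were -0.96, -1.06 and -0.92 (each SE 0.18) in ID1 to ID3 and -1.31 (SE 0.19) in ID4. CCDC24 overlaps the 3′ end of SLC6A9 on the other strand and was also lower, by log2 differences of -0.49, -0.45 and -0.61 where called (ID1, ID3 and ID4, adjusted p = 0.0373, 0.0445 and 0.013). Without strand the reads of this pair cannot be told apart, so SLC6A9 values are uncertain.

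**Figure D2:**
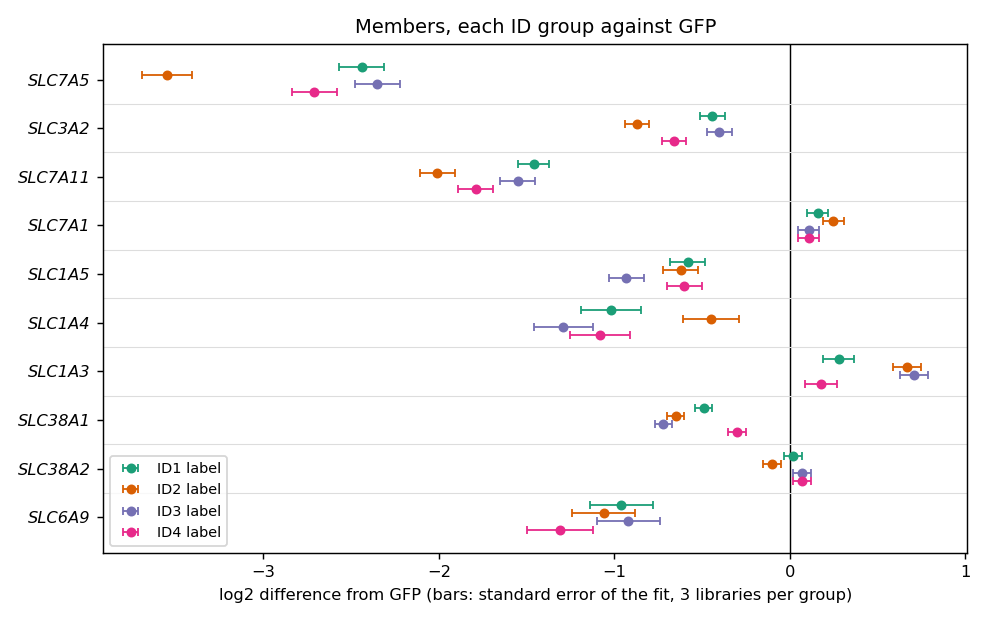
Log2 difference from GFP (horizontal axis) of each member (vertical axis) in the 4 ID groups, from a fit of all 15 libraries; bars are standard errors of the fit with 3 libraries per group. SLC7A5 lies between -3.55 and -2.35, SLC7A11 between -2.01 and -1.46, and SLC1A3 and SLC7A1 lie right of 0 in all 4 groups.

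The ID groups were next compared with each other, which asks whether transporter levels were the same in the 4 labelled groups. GFP levels do not enter these differences, though the GFP libraries share in the fit's estimate of the spread. Each contrast is a test of the difference itself. Of 60 tests (10 members in 6 pairs of groups), 25 were called, in 8 members, and 14 of the 25 were called under every alternative processing that tested the gene. A filter that kept the upper 25% of genes did not test SLC7A5, SLC7A11, SLC1A4 or SLC6A9. Called were 6 of 10 members for ID1 against ID2, 3 for ID1 against ID3, 1 for ID1 against ID4, 6 for ID2 against ID3, 5 for ID2 against ID4 and 4 for ID3 against ID4. The shares of all tested genes called were 18.6%, 9.18%, 4.87%, 15%, 18.6% and 11.3% in the same order.

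SLC7A5 was lower in ID2 than in each other ID group. Its mean was 2.66 ± 0.441 CPM in ID2 (SD, n = 3), against 5.85 ± 1.01 CPM in ID1, 6.31 ± 0.731 CPM in ID3 and 4.83 ± 0.332 CPM in ID4. The log2 difference was 1.11 for ID1 minus ID2 (SE 0.17, adjusted p = 7.36e-05, edgeR), -1.21 for ID2 minus ID3 (SE 0.17, adjusted p = 3.26e-05) and -0.85 for ID2 minus ID4 (SE 0.18, adjusted p = 0.00172). ID1 minus ID3 was not called, with a 95% interval of the difference from -0.39 to 0.19. All 3 ID2 contrasts were called under every alternative that tested SLC7A5.

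SLC3A2 and SLC7A11 were also lower in ID2 than in ID1 and ID3. For SLC3A2 the log2 difference was 0.42 for ID1 minus ID2 (SE 0.07, adjusted p = 0.000345) and -0.47 for ID2 minus ID3 (SE 0.07, adjusted p = 0.000148). For SLC7A11 it was 0.55 for ID1 minus ID2 (SE 0.11, adjusted p = 0.000824) and -0.46 for ID2 minus ID3 (SE 0.11, adjusted p = 0.00501). These 4 were called under every alternative that tested the genes. Against ID4, the ID2 differences were not called (adjusted p = 0.0582 for SLC3A2 and 0.18 for SLC7A11, edgeR). Their 95% intervals, not adjusted over the tested genes, were -0.36 to -0.06 for SLC3A2 and -0.43 to 0.00 for SLC7A11. SLC3A2 was higher in ID3 than in ID4 by 0.26 (adjusted p = 0.0273), which was not called without ID3 replicate 1 or 2 or ID4 replicate 2 or 3 (adjusted p up to 0.138).

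The SLC1 carriers ordered the ID groups in other ways. SLC1A3 was higher in ID2 and ID3 than in ID1 and ID4, with log2 differences of -0.40 for ID1 minus ID2, -0.43 for ID1 minus ID3, 0.49 for ID2 minus ID4 and 0.53 for ID3 minus ID4 (each SE 0.08, adjusted p = 0.00144, 0.00177, 0.000197 and 0.000215, called under every alternative). SLC1A4 was higher in ID2 than in ID3 by 0.84 (SE 0.17, adjusted p = 0.00215, called under every alternative that tested it). It was higher in ID2 than in ID4 by 0.63 (adjusted p = 0.0141, and 0.0554 without ID4 replicate 2). Its ID1 minus ID2 difference was -0.57 (adjusted p = 0.0208), not called without replicate 1 of ID1 or of ID2 (up to 0.100). SLC1A5 was lower in ID3 than in ID1, ID2 and ID4 by log2 differences of 0.34, 0.31 and 0.33, with adjusted p of 0.029, 0.0385 and 0.0337. Each of these 3 calls was lost without ID3 replicate 1 or 2, among other libraries (adjusted p up to 0.159, 0.183 and 0.18), and the ID3 libraries overlapped those of ID1 and ID2.

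SLC38A1 was higher in ID4 than in ID2 and ID3. ID2 minus ID4 was -0.35 (SE 0.05, adjusted p = 5.9e-05) and ID3 minus ID4 was -0.41 (SE 0.05, adjusted p = 2.01e-05), both called under every alternative. Smaller SLC38A1 differences of 0.16 (ID1 minus ID2, adjusted p = 0.0413), 0.22 (ID1 minus ID3, adjusted p = 0.0108) and -0.19 (ID1 minus ID4, adjusted p = 0.0363) each lost their call under some alternative, the last of them without any 1 of the 6 libraries and with the replicate block (adjusted p up to 0.147, 0.0556 and 0.142). SLC38A2 was lower in ID2 than in ID3 and in ID4, by -0.17 in both (adjusted p = 0.0364 and 0.0328), and these calls were lost under several alternatives (up to 0.131 and 0.114). SLC7A1 and SLC6A9 had no call in any pair. Their widest differences were 0.15 for ID2 minus ID4 in SLC7A1 (unadjusted 95% interval 0.03 to 0.27) and 0.39 for ID3 minus ID4 in SLC6A9 (-0.01 to 0.78). A p that misses the threshold does not show equal levels.

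**Figure D3:**
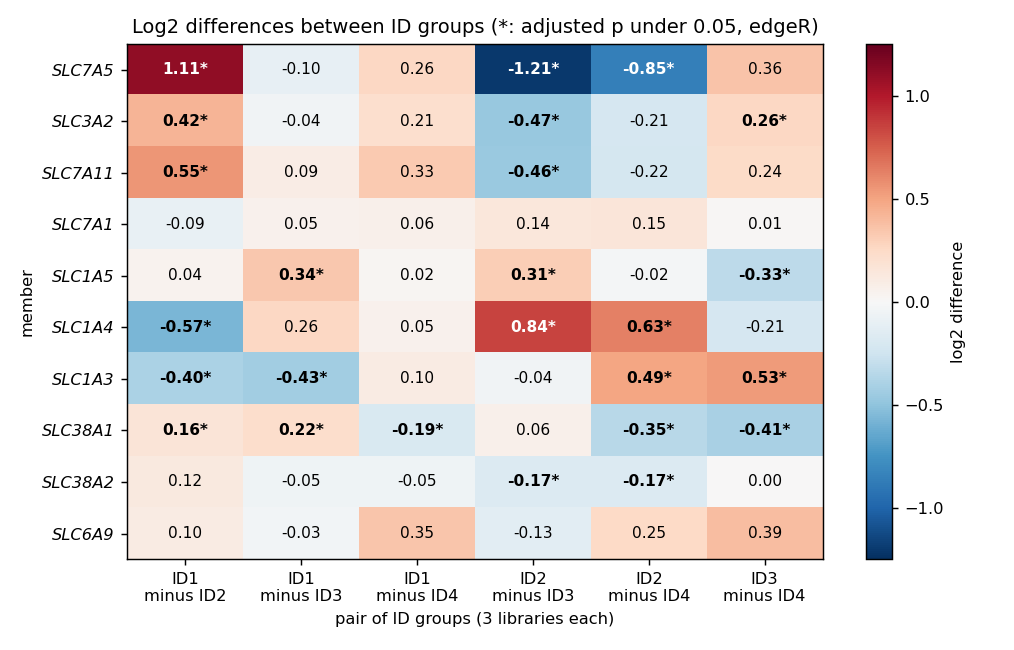
Log2 differences between pairs of ID groups (columns, first group minus second, 3 libraries each) for the 10 members (rows); an asterisk marks an adjusted p under 0.05. Values for ID2 pairs are the widest in SLC7A5 (1.11, -1.21 and -0.85) and have the opposite sign in SLC1A4 (-0.57, 0.84 and 0.63).

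Other transporters of the plasma membrane moved in both directions. Of 33 such genes, 21 had at most 3 counts in every library and 7 were abundant enough to be tested. Called lower were 0, 4, 1 and 1 of the 7 in ID1 to ID4 and called higher 2, 3, 3 and 2, with a median log2 difference of 0.02, -0.31, 0.03 and 0.11 beside 0.00 over all tested genes. Of all tested genes, 9.73%, 16.7%, 13.5% and 9.51% were called lower and 12.4%, 18.5%, 15.1% and 12.1% higher in ID1 to ID4, and these shares stand beside the counts of every list that follows. These lists too were chosen with earlier results of these libraries known. Adjusted p against GFP for their genes therefore describes the fit and is not independent evidence. SLC43A2 (LAT4) and SLC7A8 (LAT2), which like SLC7A5 carry large neutral amino acids, rose in all 4 groups. SLC43A2 rose from 9.12 ± 2.66 CPM in GFP (SD, n = 3) to 26.1, 31.8, 26.6 and 24.1 CPM in ID1 to ID4. Its log2 differences were 1.49, 1.81, 1.51 and 1.38 (each SE 0.14), with adjusted p from 9.64e-10 in ID2 to 2.58e-07 in ID4 (edgeR). SLC7A8, another light chain that pairs with SLC3A2, rose from 3.9 ± 0.575 CPM in GFP to 7.82, 10.5, 9.95 and 8.9 CPM, with log2 differences of 1.00, 1.45, 1.33 and 1.20 (adjusted p = 0.0011, 6.02e-06, 3.2e-05 and 0.000177). No GFP library reached any ID library for either gene. SLC38A4, an alanine and arginine carrier, rose in ID2 by 0.96 and in ID3 by 1.02 on the log2 scale (adjusted p = 0.00765 and 0.00611). SLC6A15, a carrier of branched-chain amino acids and proline, fell by 0.67 in both ID2 and ID3, and SLC43A1 (LAT3) fell by 0.82 in ID2 and by 0.57 in ID4. The taurine carrier SLC6A6 and the cationic and neutral exchanger SLC7A6 fell in ID2, by 0.48 and 0.31. The SLC38A4 calls were lost without GFP replicate 3 in ID2 and without ID3 replicate 1 in ID3 (adjusted p = 0.0544 and 0.0512), and the SLC43A1 call in ID4 under 7 alternatives (adjusted p up to 0.116).

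Transporters of lysosomes, vesicles and mitochondria mostly passed no test. Of 23 listed, 16 were tested, and 1, 3, 2 and 1 were called lower and 1, 1, 1 and 1 higher in ID1 to ID4, with medians of 0.05, -0.07, 0.04 and -0.04. SLC25A29, a mitochondrial carrier of basic amino acids, fell in all 4 groups, by 0.59, 0.77, 0.57 and 0.52. SLC25A44, which carries branched-chain amino acids into mitochondria, fell in ID2 by 0.39 and in ID3 by 0.32, and the mitochondrial serine carrier SFXN1 fell in ID2 by 0.28. CTNS, the lysosomal cystine exporter, rose by 0.20, 0.40 and 0.28 in ID1 to ID3, and SLC6A17 rose by 0.62 in ID4. Calls were lost without GFP replicate 2 or ID1 replicate 1 for CTNS in ID1 (adjusted p up to 0.0809), without GFP replicate 3 or ID3 replicate 1 for SLC25A44 in ID3 (up to 0.0725) and without ID4 replicate 1 for SLC6A17 (0.1). SLC25A38, SLC15A4 and SLC36A4 were called in no group.

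**Figure D4:**
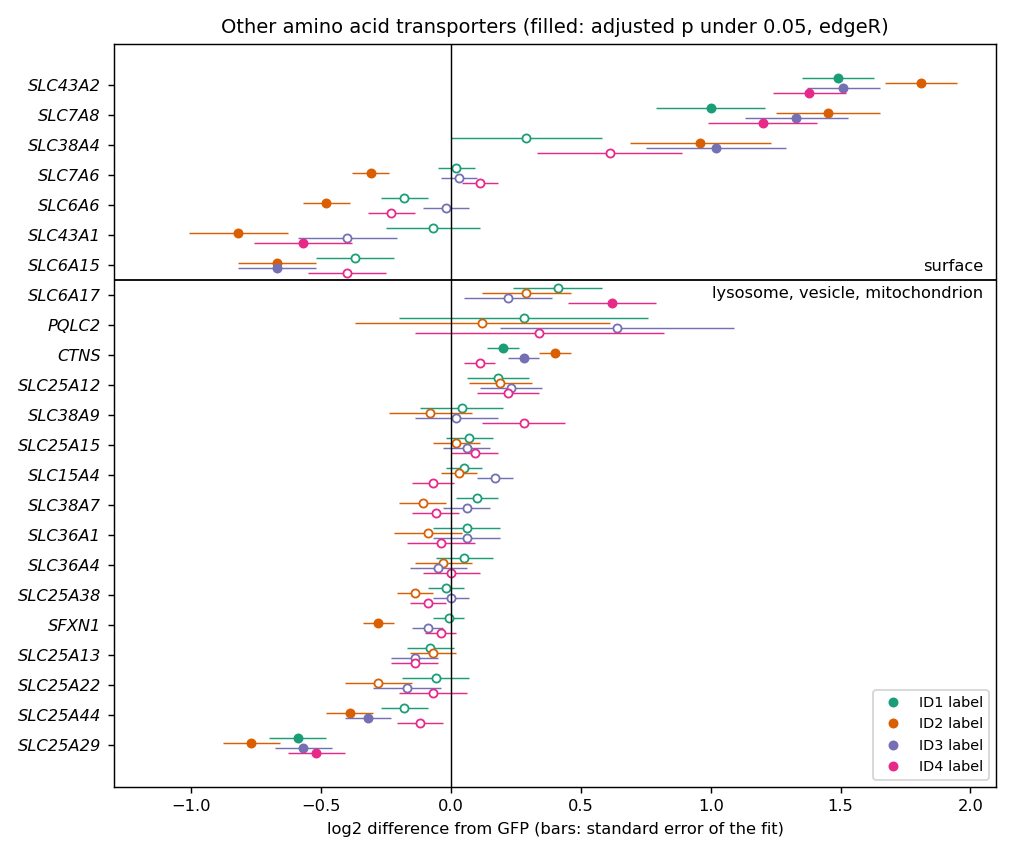
Log2 difference from GFP (horizontal axis) of the tested amino acid transporters outside the 10 members (vertical axis), by ID group; bars are standard errors of the fit and filled points have an adjusted p under 0.05. SLC43A2 (1.38 to 1.81) and SLC7A8 (1.00 to 1.45) lie right of 0 in all 4 groups and SLC25A29 (-0.77 to -0.52) left of 0.

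A further list, the amino acid response, holds ATF4, related transcription factors and genes they are known to act on. This list was drawn up with lower SLC7A5 and ASNS known, so its direction is not independent evidence. Of 22 genes, 21 were tested and 17 were called lower in all 4 groups, beside 4.16% of all tested genes. In each group 17 were called lower, and 1, 2, 2 and 1 were called higher in ID1 to ID4. The medians were -0.65, -0.88, -0.79 and -0.71 in ID1 to ID4, beside 0.00 over all tested genes. ASNS, which makes asparagine, fell from 159 ± 6.92 CPM in GFP (SD, n = 3) to 41, 32.9, 34.8 and 39 CPM, and PSAT1, of serine synthesis, from 84.2 ± 6.42 CPM to 27.8, 19.5, 26.8 and 26.5 CPM. The log2 differences of ASNS were -1.97, -2.26, -2.22 and -2.03 (each SE 0.06), given with no p-value since its direction was known beforehand. PHGDH, the first enzyme of serine synthesis, fell by 1.20, 1.71, 1.23 and 1.04, and CHAC1, which degrades glutathione, by 1.67, 1.82, 1.69 and 1.89. TRIB3, an inhibitor of ATF4 activity, fell by 1.07, 1.53, 0.79 and 1.27, and DDIT4, an inhibitor of mTORC1, by 1.13, 1.29, 0.89 and 1.23. ATF4 mRNA itself, named after its values were seen, fell by 0.51, 0.73, 0.79 and 0.52. CEBPB, a partner of ATF4, rose in all 4 groups by 0.28, 0.29, 0.28 and 0.20. ATF3 rose in ID3 by 0.36 and PYCR1, of proline synthesis, in ID2 by 0.40. The calls of CEBPB in ID4 and of ATF3 were lost under 4 and 5 alternatives (adjusted p up to 0.125 and 0.185). ALDH18A1, the other proline enzyme listed, was called in none.

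A list of glutathione and other antioxidant genes, named glutathione genes for short, had calls in both directions. Of these processes, glutathione synthesis draws on the cystine that SLC7A11 brings in. Of 9 tested, 1, 1, 2 and 0 fell and 0, 3, 2 and 1 rose in ID1 to ID4, with medians of -0.03, 0.05, 0.02 and -0.01, and nothing is read from counts this small. TXNRD1 fell by 0.33 in ID2 and 0.30 in ID3, and GCLM, a subunit of the ligase that starts glutathione synthesis, by 0.21 in ID1 and 0.25 in ID3. HMOX1, which degrades haem, rose by 0.44 in ID2 and 0.43 in ID3, and GPX4 rose by 0.33 and 0.21 in the same groups. GSS rose by 0.26 in ID2 and NQO1 by 0.15 in ID4. The calls of GCLM in both groups, of TXNRD1 and GPX4 in ID3 and of NQO1 were each lost under at least 1 alternative (adjusted p up to 0.193). GSR, NFE2L2 and GCLC, the other ligase subunit, were called in no group.

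Of 8 enzymes of glutamine and glutamate, 0, 3, 2 and 0 fell and 3, 2, 1 and 1 rose, with medians of 0.06, -0.08, 0.05 and 0.06. GLUL, which makes glutamine from glutamate, rose in ID1 and ID2, from 8.04 ± 1.37 CPM in GFP to 17.6 ± 1.52 and 15.1 ± 2.01 CPM, by 1.12 and 0.92 on the log2 scale (adjusted p = 5.5e-06 and 3.76e-05). It stood at 9.35 ± 1.66 CPM in ID3 and 8 ± 0.946 CPM in ID4, which overlapped GFP. GLS2 rose in ID1 by 0.72, GOT1 fell in ID2 by 0.31 and in ID3 by 0.21, and GOT2 fell in ID2 by 0.33. GLUD1 fell by 0.29 in ID2 and 0.35 in ID3, but it shares near-identical sequence with GLUD2, which was called in none, and both are uncertain. The calls of GLS2 and of GLUD1 in ID2 were lost under 9 and 1 alternatives (adjusted p up to 0.293 and 0.058). PPAT was called in none.

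Among genes that sense amino acids, 12 of 13 were tested, of which 2, 1, 1 and 1 fell and 2, 1, 3 and 2 rose, with medians of -0.03, 0.08, 0.12 and -0.01, and nothing is read from these counts either. RPTOR, the scaffold of mTORC1, fell by 0.55, 0.84, 0.78 and 0.84 (adjusted p between 7.33e-06 and 0.00118). RRAGD, a Rag GTPase that helps bring mTORC1 to the lysosome, rose from 0.876 ± 0.276 CPM in GFP (SD, n = 3) to 3.26, 4.76, 2.6 and 2.1 CPM. Its log2 differences were 1.86, 2.43, 1.52 and 1.23 (adjusted p between 3.5e-07 and 0.00681), on 7 to 16 counts per GFP library and 25 to 84 elsewhere. EIF2AK4, which encodes the sensor kinase GCN2, rose in ID1, ID3 and ID4 by 0.38, 0.33 and 0.45. GATSL3 (CASTOR1), an arginine sensor, fell in ID1 by 0.83 and its relative GATSL2 (CASTOR2) rose in ID3 by 0.33, calls that were lost under 7 and 9 alternatives (adjusted p up to 0.135 and 0.15). RRAGA, RRAGC and FLCN were called in none.

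Genes whose levels followed SLC7A5 across libraries were named by Pearson's r of log2 CPM over the 15 libraries, as a description, since these libraries share the low ID and high GFP groups. Of 12869 other tested genes, PSAT1 was most alike (r = 0.978), followed outside the members by SLC5A3, the sodium and myo-inositol carrier (0.968), SESN2, a leucine sensor and inhibitor of mTORC1 (0.967), MRPS6 (0.966) and RIPK4 (0.962). SLC5A3 lies within the MRPS6 gene on chromosome 21, and their reads may be divided between them. SLC5A3 stood at 101 ± 4.69 CPM in GFP and at 48, 40.2, 53.2 and 52.7 CPM in ID1 to ID4. SESN2 stood at 103 ± 7.16 CPM in GFP and at 52.5, 47.2, 56.9 and 54.8 CPM. Among the members, r with SLC7A5 was 0.967 for SLC7A11 and 0.928 for its heavy chain SLC3A2, and it fell to 0.514 for SLC1A4 and 0.164 for SLC38A2. It was below 0 for SLC1A3 (-0.671) and SLC7A1 (-0.768).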

How the data were processed

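The authors deposited 1 table with raw read counts and log2 normalized read counts per gene for 15 QuantSeq 3′ libraries of U87MG cells. Reads were aligned to hg19, and the submitters' processing notes name Bowtie2 and BWA, without roles. The counting tool, annotation and strand setting are not given in the sources used here. The deposited log2 values were used to keep the upper 50% of genes by mean (3.217 or more, 12870 genes) and in an alternative. Deposited counts were fitted with edgeR 4.0.16 (TMM, quasi-likelihood test, R 4.3.3), with 1 mean per group over all 15 libraries and Benjamini-Hochberg adjustment over the tested genes at 0.05. SE is the size of the log2 difference divided by the square root of F. CPM are counts scaled to 1000000 per library. Alternatives were DESeq2 1.42.0, limma 3.58.1 on the deposited log2 values, DESeq2 size factors, 3 other filters, only the 2 groups compared, a replicate block and leaving out each library. The fits were tested on simulated data. Members, lists and tests were chosen with earlier results of these data known. Of each list outside the members, up to 6 genes per direction called in the most groups and up to 3 called in none were named. Gene positions are from GENCODE on GRCh37 by symbol (22331 of 25737 entries matched). Intervals of log2 differences were built from SE and were not adjusted over the tested genes, while calls were. A difference can therefore miss a call though its interval leaves out equal levels. Results for some listed genes, which remain in the counts of their list, are not reported here.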

Additional observations from a re-analysis of the deposited data

Results flagged for a closer look

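The ID groups, all set against the same GFP libraries, differed from each other in 25 contrasts of the transporters and in 4 contrasts of GLUL, each tested directly (edgeR, adjusted over all tested genes). SLC7A5 had log2 differences of 1.11 (ID1 minus ID2), -1.21 (ID2 minus ID3) and -0.85 (ID2 minus ID4). SLC3A2 had 0.42 (ID1 minus ID2), -0.47 (ID2 minus ID3) and 0.26 (ID3 minus ID4), and SLC7A11 had 0.55 (ID1 minus ID2) and -0.46 (ID2 minus ID3). SLC1A5 had 0.34 (ID1 minus ID3), 0.31 (ID2 minus ID3) and -0.33 (ID3 minus ID4), and SLC1A4 had -0.57 (ID1 minus ID2), 0.84 (ID2 minus ID3) and 0.63 (ID2 minus ID4). SLC1A3 had -0.40 (ID1 minus ID2), -0.43 (ID1 minus ID3), 0.49 (ID2 minus ID4) and 0.53 (ID3 minus ID4). SLC38A1 had 0.16 (ID1 minus ID2), 0.22 (ID1 minus ID3), -0.19 (ID1 minus ID4), -0.35 (ID2 minus ID4) and -0.41 (ID3 minus ID4), and SLC38A2 had -0.17 for both ID2 minus ID3 and ID2 minus ID4.

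GLUL, the glutamine synthetase gene, was higher in ID1 and ID2 than in ID3 and ID4. Its log2 differences were 0.92 (ID1 minus ID3, adjusted p = 0.000207), 1.13 (ID1 minus ID4, adjusted p = 2.4e-05), 0.73 (ID2 minus ID3, adjusted p = 0.00124) and 0.93 (ID2 minus ID4, adjusted p = 0.0001), and they were called under every alternative that tested GLUL, which the upper 25% filter did not.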

How the results depend on the processing

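No direction of a called difference was reversed. In 544 refits the members' log2 differences from GFP moved by less than the spread between replicates, as did 50 of 50 member levels on TMM library sizes. Calls against GFP changed only for SLC1A4, SLC7A1, SLC1A3 and SLC38A2, apart from genes left untested. Of 342 refits of the 25 member differences between ID groups, 53 lost the call, and of 1363 for other listed genes 66 did, with no reversal. With the upper 25% of genes, some listed genes were no longer tested. Called members then numbered 5, 5, 4 and 3 in ID1 to ID4 against GFP and 3 in both ID1 against ID2 and ID2 against ID3. Other surface transporters numbered 1, 3, 1 and 1, intracellular ones 1 in ID4, glutamine enzymes 1 in ID1, and sensing genes 1 in each of ID1, ID3 and ID4. With no filter, other surface transporters called were 4 in ID1 and 5 in ID4. With only the 2 groups in the fit, they were 5 in ID4, members were 2 in ID1 against ID4 and glutathione genes 2 in ID4. Correlations between libraries of the same number, after removal of group means, ran from -0.25 to 0.24. Libraries of unlike number were not compared, so these values do not settle whether numbers pair them. With the replicate block, members called in ID1 against ID4 were 0 in place of 1. That block moved no other count by over 1.5 times.

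Without 1 library, members called numbered 1 to 3 in ID1 against ID3 (1 without ID1 replicate 2 or ID3 replicate 2), 0 in ID1 against ID4 for each library, 3 to 6 in ID2 against ID4 (3 without ID4 replicate 2) and 2 to 4 in ID3 against ID4 (2 without ID3 replicate 1 or 2, or ID4 replicate 2 or 3). Intracellular transporters numbered 1 to 2 in ID1 (1 without GFP replicate 2 or ID1 replicate 1) and 1 to 2 in ID4 (1 without ID4 replicate 1). Glutathione genes numbered 0 to 1 in ID1 (1 only without ID1 replicate 1), 2 to 4 in ID3 (2 without ID3 replicate 1) and 0 to 1 in ID4 (0 without GFP replicate 2 or 3, or ID4 replicate 2 or 3). The cause was not tested. SLC6A9, SLC1A4 and SLC7A5 in ID2 rest on under 100 counts per ID library, which limits differences between ID groups.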
